A study of Homo sapiens with 8 samples.

Results

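The response of chromatin accessibility to UV light was described in ASH1L-/- U2OS cells, from the peak lists of 2 libraries made 3 h post UV and 2 libraries of unchallenged cells. These are 4 of the 8 libraries of the series, and in such bulk libraries a site open in fewer cells and a site less open in each cell cannot be told apart. The other 4 are the matching wild-type (WT) libraries, and they served as an independent readout. The regions of the 4 ASH1L-/- lists were joined wherever they overlapped by 1 bp into 386644 union sites. A gained site had a region in both UV lists and in neither unchallenged list, and a lost site the reverse. This gave 18013 gained sites (4.66% of the union sites) and 8240 lost sites (2.13%). Which sites were gained or lost was fixed by the presence of regions, so these counts are a description without a test.

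U2OS is a human osteosarcoma line with a rearranged genome. The ASH1L-/- cells were made from it with CRISPR/Cas9 by deletions in coding exons of ASH1L, and knockout cells were grown from isolated colonies after puromycin selection; whether the libraries came from 1 colony is not given in the sources used here. UV groups received UV-C at 20 J/m2 and recovered for 3 h, and unchallenged groups received no UV. All groups shared a DNase treatment against dead or damaged cells before the nuclei were taken. The replicates were labelled as biological replicates, and the study describes them as independent experiments.

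In ATAC-seq the transposase Tn5 cuts and tags accessible DNA, so that a region with many reads marks an open promoter or enhancer. ASH1L is a histone methyltransferase that acts in global-genome nucleotide excision repair (GG-NER), the pathway that finds UV lesions anywhere in the genome. UV light also activates stress kinases that feed into AP-1, a family of FOS and JUN dimers that bind many distal enhancers.

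The gained sites that stood highest in the UV lists were distal, and 6 of the first 10 held the AP-1 motif (TGANTCA on either strand). Sites were ordered by the lower of their percentiles of fold enrichment in the lists that held them, where a percentile of 100 is the highest region of a list. The windows of 3 gained sites of the highest rank are shown because they carry the motif that separated gained from lost sites. Each is 300 bases of hg38 around the strongest summit, and capitals mark the AP-1 matches.
SOX11 site, chr2:5798129-5798428, plus strand: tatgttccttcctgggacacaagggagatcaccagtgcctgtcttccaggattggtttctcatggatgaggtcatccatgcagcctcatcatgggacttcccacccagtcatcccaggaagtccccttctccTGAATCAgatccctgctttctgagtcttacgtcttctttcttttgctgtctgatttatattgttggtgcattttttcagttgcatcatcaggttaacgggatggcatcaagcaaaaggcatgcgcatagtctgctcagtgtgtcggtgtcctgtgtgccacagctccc
SYNPR site, chr3:63508397-63508696, plus strand: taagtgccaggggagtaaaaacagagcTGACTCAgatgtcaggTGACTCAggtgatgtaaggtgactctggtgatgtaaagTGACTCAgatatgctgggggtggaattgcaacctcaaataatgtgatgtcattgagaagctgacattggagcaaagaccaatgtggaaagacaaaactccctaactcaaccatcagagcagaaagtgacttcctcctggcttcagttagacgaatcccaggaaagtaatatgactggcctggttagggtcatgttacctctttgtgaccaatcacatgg
POM121L12 site, chr7:52764682-52764981, plus strand: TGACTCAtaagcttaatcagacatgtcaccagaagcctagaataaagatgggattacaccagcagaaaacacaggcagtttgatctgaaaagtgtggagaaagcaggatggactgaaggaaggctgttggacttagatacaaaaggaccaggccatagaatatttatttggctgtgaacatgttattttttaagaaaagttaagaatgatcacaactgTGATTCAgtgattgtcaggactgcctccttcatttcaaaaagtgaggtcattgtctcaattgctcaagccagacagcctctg
The first 3 lost sites are shown for contrast. Capitals mark matches of the E2-box (CACCTG), the E-box variant bound by E proteins and by the repressors ZEB1 and SNAI2, and of the RUNX motif (TGTGGT), both read on either strand.
ARHGAP28 site, chr18:6661879-6662178, plus strand: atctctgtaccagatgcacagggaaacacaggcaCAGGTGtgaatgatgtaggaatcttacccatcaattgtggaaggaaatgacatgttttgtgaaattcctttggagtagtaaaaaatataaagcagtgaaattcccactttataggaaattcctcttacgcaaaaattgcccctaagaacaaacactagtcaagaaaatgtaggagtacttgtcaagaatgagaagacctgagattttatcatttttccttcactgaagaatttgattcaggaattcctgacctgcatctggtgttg
TCF4 site, chr18:56043810-56044109, plus strand: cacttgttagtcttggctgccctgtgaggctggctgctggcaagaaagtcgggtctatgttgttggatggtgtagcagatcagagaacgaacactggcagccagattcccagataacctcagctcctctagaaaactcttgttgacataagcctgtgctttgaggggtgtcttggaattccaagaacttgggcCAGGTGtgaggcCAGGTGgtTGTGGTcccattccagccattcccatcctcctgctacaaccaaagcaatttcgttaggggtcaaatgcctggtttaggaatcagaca
SOX2 site, chr3:181752221-181752520, plus strand: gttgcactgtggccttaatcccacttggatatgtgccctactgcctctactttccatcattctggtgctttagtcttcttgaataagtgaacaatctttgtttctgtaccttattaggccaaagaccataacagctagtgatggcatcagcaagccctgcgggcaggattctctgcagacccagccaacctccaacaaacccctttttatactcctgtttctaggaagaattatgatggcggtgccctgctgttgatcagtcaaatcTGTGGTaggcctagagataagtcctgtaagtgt
In the gained windows there were 1, 3 and 2 AP-1 matches in the order shown. The SYNPR window also held 2 E2-box matches, which are not marked. The ARHGAP28 window held 1 AP-1 match, which is not marked, and the TCF4 and SOX2 windows held none.

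Over all gained sites, 42.9% had an AP-1 match in the 300 bases around the summit, against 11.5% of lost sites and 20.3% of all union sites. Sites with a region in all 4 lists, called shared below, were at 36.6%. At least 2 matches were found in 8.06% of gained sites and in 0.643% of lost sites. The share was larger at gained sites of higher rank, from 32.9% where the lower percentile was at most 25, to 43.2% (25 to 50), 56.5% (50 to 75) and 67.2% (above 75), the last being 409 gained sites above percentile 75 in both UV lists. Of the 193 lost sites above percentile 75 in both unchallenged lists, 12.4% held the motif.

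The E2-box and the RUNX motif were more frequent at lost sites. The E2-box was found in 37.3% of lost, 20.8% of gained and 28.5% of all union sites. The RUNX motif was found in 31.5%, 21.9% and 24.2% in the same order. Among the 193 lost sites above percentile 75 in both lists the shares were 67.9% for the E2-box and 52.3% for RUNX. The TEAD motif (GGAATG), bound by the partners of YAP, differed little (21.2% of gained and 23.6% of lost sites). The p53 motif, read as CATG, any 6 bases and CATG, was found in 1.83% of gained and 1.76% of lost sites. Of 16 motifs searched, none of the others differed between gained and lost sites by as much as RUNX. AP-1 shares also differed between gained and lost sites at like base composition. Among sites with 40 to 50% GC they were 46.9% of gained, 13.8% of lost and 23.7% of all union sites. Shared sites in that GC range were at 47.9%, so AP-1 was about as frequent there as at gained sites. Outside promoters, 45.3% of gained and 42.7% of shared sites held it. Mean GC content was 47.0% at gained and 49.3% at lost sites. Dipyrimidines, the target of UV damage, made up 56.2% of dinucleotides at both.

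**Figure D1:**
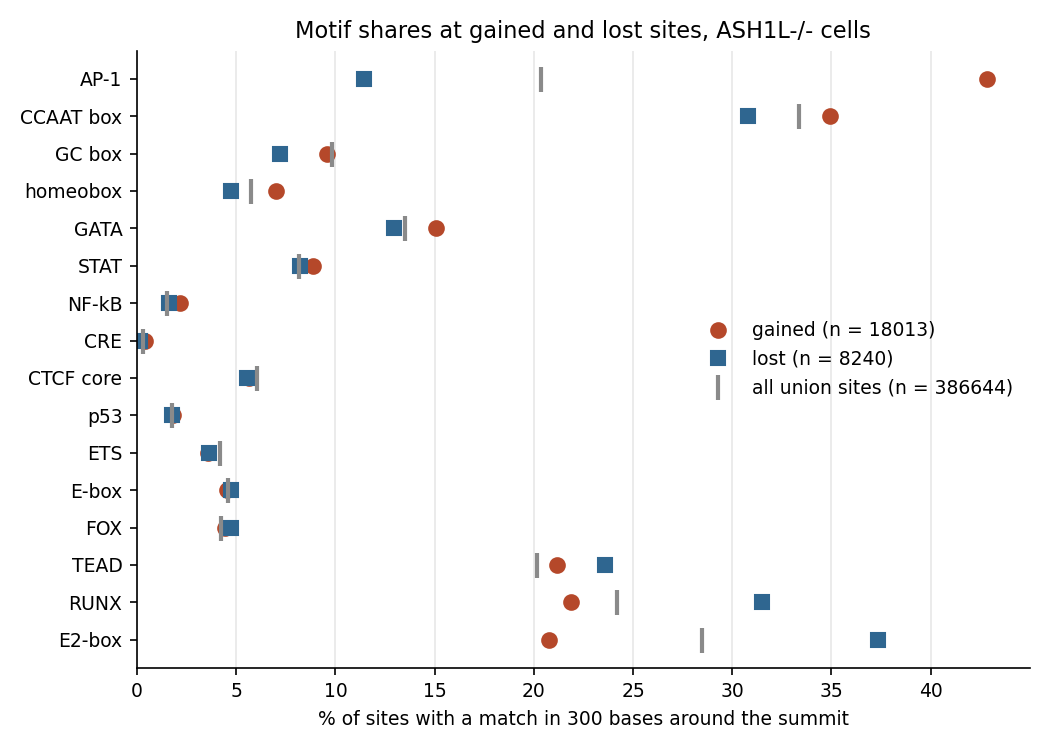
Share of sites with a match of each of 16 motifs in 300 bases around the summit (x axis, percent), for gained sites (circles), lost sites (squares) and all union sites (bars) of ASH1L-/- cells. AP-1 stands apart at 42.9% of gained and 11.5% of lost sites, and RUNX and the E2-box lie further right for lost sites.

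The position of AP-1 matches around the summit had 2 maxima. In gained sites there were 54.1 and 51.6 matches per 1000 sites in the 20-bp bins centred 110 bp to the left and right of the summit, and 18.5 at the summit. Shared sites had the same shape at 42.8, 41.8 and 19.4. Lost sites had 7.28 and 10.4 in the same bins to the left and right, and 7.52 at the summit. The share of gained minus lost sites with AP-1 was 31.4 percentage points in 300 bases, but 5.81 in the inner 100 bases and 34.3 in 600 bases. It was 10.2 and 12.8 without UV replicates 1 and 2, when gained sites needed only 1 UV list. Most AP-1 matches near gained sites thus lay outside the inner 100 bases.

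**Figure D2:**
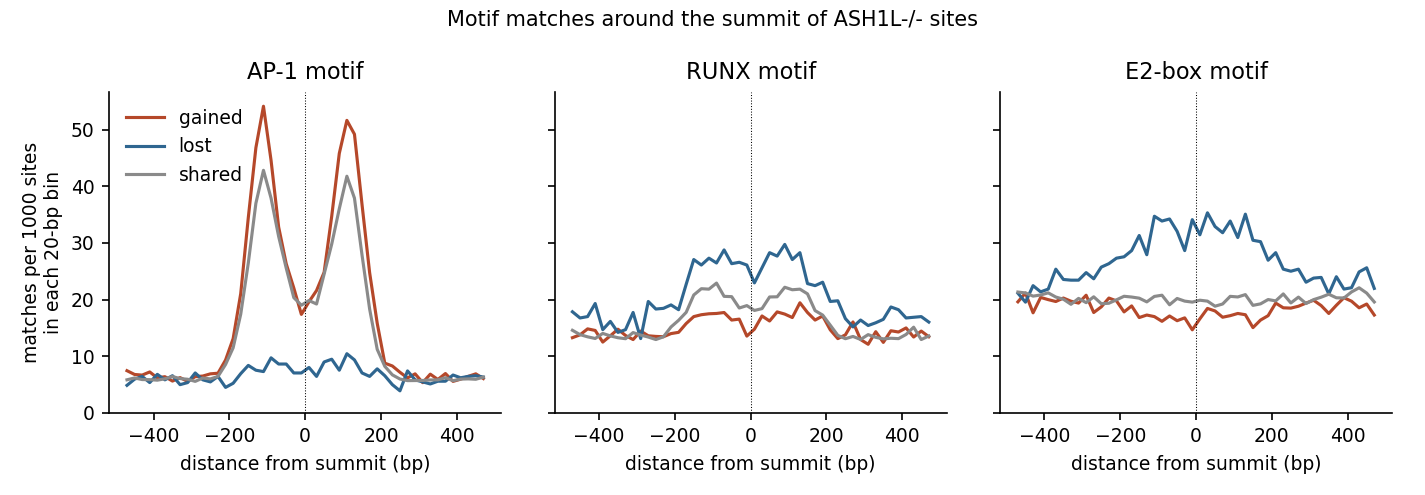
Matches per 1000 sites in 20-bp bins (y axis) against the distance from the summit (x axis, bp), for gained, lost and shared sites of ASH1L-/- cells. AP-1 peaks about 110 bp to either side of the summit in gained and shared sites, and RUNX and the E2-box are highest in lost sites.

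The AP-1 motif also separated whole libraries. Among the 40000 regions of highest fold enrichment in each list, 37.5% and 35.8% held it in the unchallenged ASH1L-/- libraries and 45.2% and 44.6% in those 3 h post UV. The groups did not overlap, and the UV mean was higher by 8.27 percentage points. The E2-box was at 23.8% and 25.05% without UV and at 20.7% and 20.6% after UV. The RUNX motif was at 26.8% and 26.3% without UV and at 24.4% and 24.1% after UV. With 2 libraries against 2, the exact permutation test (two-sided) cannot go below p = 0.333, which each of these 3 comparisons reached, so no difference between groups of libraries could pass a threshold here. In WT cells the AP-1 share was 37.1% and 39.6% without UV and 47.3% and 48.2% after UV. The UV difference was thus 9.36 percentage points in WT and 8.27 in ASH1L-/- cells, and the difference between these was not tested.

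**Figure D3:**
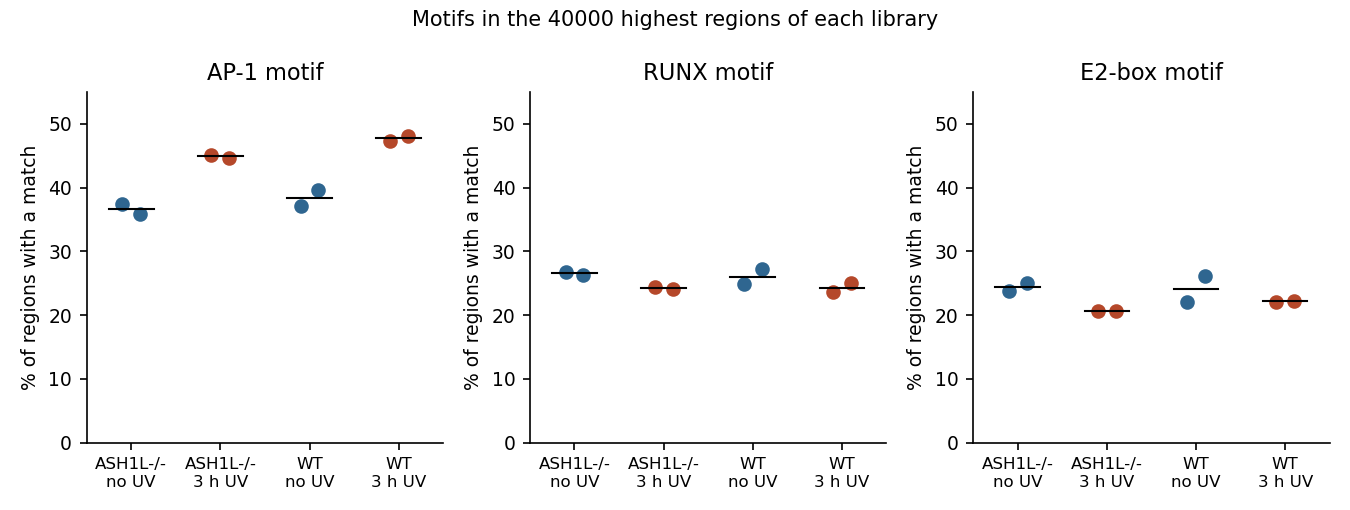
Percent of the 40000 highest regions of each library with an AP-1, RUNX or E2-box match (y axis), 2 libraries per group (points) with their mean (line). In both genotypes both UV libraries lie above both unchallenged libraries for AP-1 (45.2% and 44.6% against 37.5% and 35.8% in ASH1L-/- cells).

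The 4 lists held 158198 to 220783 regions that covered 54.8 to 78.1 Mb. Neither measure separated the groups. The median region width was 274 and 273 bp without UV and 381 and 356 bp after UV, and 80.1% and 77.4% against 88.5% and 87.4% of regions had a q-value below 0.05. Both differences left the groups without overlap. The background pileup of reads, an estimate of depth recovered from the fold enrichments and p-values, was 5.87 and 1.39 in the unchallenged libraries and 2.45 and 2.81 after UV. The UV libraries thus lay between a deeper and a shallower unchallenged library. The part of region width and depth in the gained and lost sites was not tested. The list of gained sites rests on both UV lists: it grew to 32573 sites without unchallenged replicate 1, to 23944 without replicate 2, and to 79492 and 54668 without UV replicates 1 and 2. The lost sites numbered 56919 and 100591 without unchallenged replicates 1 and 2, and 10948 and 12950 without UV replicates 1 and 2. Of all union sites, 60.4% had a region in 1 list alone.

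Gained and lost sites were mostly weak members of their lists. The median percentile of the gained sites was 41.3 in UV replicate 1 and 48.0 in UV replicate 2, and that of the lost sites 41.1 and 35.1 in the unchallenged replicates. Shared sites had medians between 75.6 and 82.7. At the edge of the lists, the weaker region had a −log10 p below 3 in 13.1% of gained and 33.5% of lost sites, where the lists began at 2. Just outside the rule were 14471 sites with regions in both UV lists and in unchallenged replicate 1, and 5851 with regions in both UV lists and in replicate 2. Of these, 37.8% held AP-1 in either case, somewhat less than the gained sites.

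The cells carried promoter regions of the mesenchymal markers RUNX2, COL1A1, SPARC, VIM and FN1 in all 4 lists, with COL1A2 in 3 and TWIST1 in 1. Promoters of CD3E and ALB had none, SPI1 and PTPRC had 1 in 1 list, and APOA1 and NEUROD1 in 2. Promoters of EPCAM, CDH1, KRT5 and PECAM1 had a region in all 4, so an open promoter alone did not tell cell types apart. ASH1L itself, on chromosome 1, had a promoter region at percentiles 97.6 and 93.9 without UV and 90.9 and 89.1 after UV, and 1 gained site within 10 kb of the gene. The promoter lies outside the deleted exons, so this says nothing about the knockout.

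To see whether the sites also responded where ASH1L was present, gained and lost sites were looked up in the 4 WT lists, which the rule had not used. Of the gained sites, 24.4% and 30.1% overlapped a region of the unchallenged WT libraries, and 52.8% and 72.6% a region of the WT libraries 3 h post UV. The groups did not overlap, and the UV mean was higher by 35.5 percentage points (p = 0.333 in a two-sided exact permutation test, the smallest attainable). For lost sites the shares were 24.02% and 38.03% without UV and 14.4% and 18.01% after UV, a difference of -14.8 points (p = 0.333, same exact test). Both were smaller where the rule asked for a region in only 1 ASH1L-/- list of the group. The gained difference was 12.1 and 16.0 points without ASH1L-/- UV replicates 1 and 2. The lost difference was -3.94 and -4.17 points without unchallenged ASH1L-/- replicates 1 and 2. All union sites differed less, from 28.1% and 31.6% to 30.6% and 35.6%. In WT cells 3894 gained sites (21.6%) had regions in both UV lists and in no unchallenged list, and 91 the reverse. Of the lost sites, 540 (6.55%) were lost in WT too, and 69 (0.837%) were gained. Among all ASH1L-/- union sites, 3.22% were gained in WT by this pattern and 0.994% were lost.

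Gained sites of high rank were also found in WT cells. All 409 gained sites above percentile 75 in both UV lists had a region in at least 1 WT library, and 97.1% and 99.5% of them had one in the WT UV libraries. In the unchallenged WT libraries 42.8% and 50.4% of them had one, more than of all gained sites. By contrast, 3413 gained sites (18.9%) and 3630 lost sites (44.1%) had none in any WT library. Of all ASH1L-/- union sites, 51.2% had none, a larger share than of either class. The AP-1 motif was in 26.3% of those 3413 gained sites and in 54.8% of the 3894 gained in WT too. The same rule applied to the 4 WT lists gave 14604 gained and 6313 lost sites among 358541 union sites. AP-1 was in 46.5% and 10.3% of them, the E2-box in 22.6% and 33.2%, and RUNX in 22.3% and 30.3%.

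**Figure D4:**
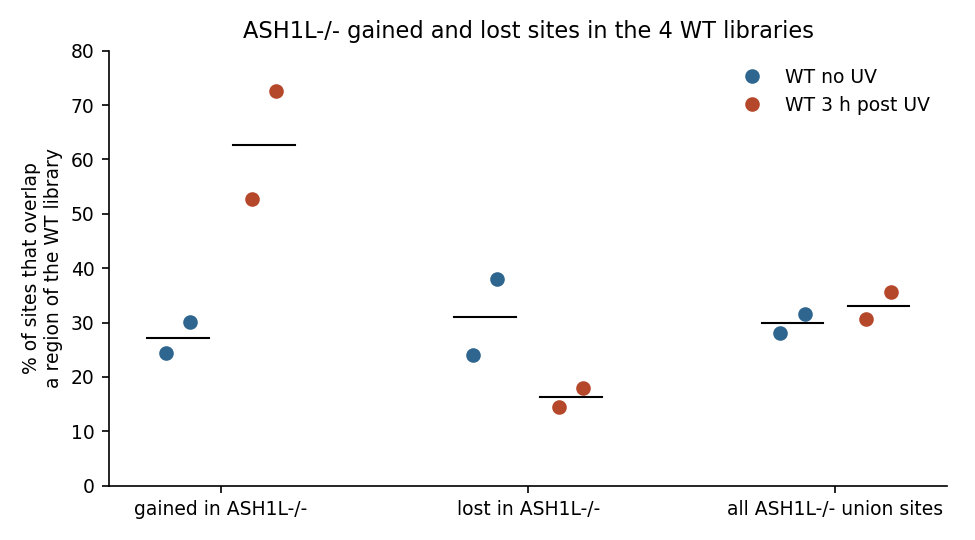
Percent of the sites gained or lost in ASH1L-/- cells, and of all their union sites, that overlap a region in each WT library (points, 2 per group, with their mean as a line). Gained sites were found in 52.8% and 72.6% of cases after UV against 24.4% and 30.1% without, and lost sites differed the other way.

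The first gained site was intergenic, on chromosome 2, at 105895 bp from the TSS of SOX11, a neural transcription factor gene, with fold enrichments of 20.0 and 17.8 in the UV replicates. Another was in an intron of SYNPR, which encodes a synaptic vesicle protein (16.8 and 15.5). A further one was intergenic, nearest to POM121L12. Others were near AADAT, in an intron of the fragile-site gene FHIT, near MTAP, which salvages methionine from polyamine synthesis, and in introns of PLA2G4A, SH2D1B and LRRC4C. PLA2G4A encodes the cytosolic phospholipase that frees arachidonic acid, SH2D1B a signalling adaptor of immune cells and LRRC4C a synaptic adhesion protein. None of these was in a promoter or exon, and all had a region in both WT UV libraries. The sites of SOX11, AADAT, FHIT and MTAP had none in the unchallenged WT libraries, whereas those of POM121L12, PLA2G4A and SH2D1B had one in both. The latter were thus missing from the unchallenged ASH1L-/- lists alone.

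Among the lost sites, the first was intergenic, nearest to ARHGAP28, the gene of a GTPase-activating protein, with fold enrichments of 11.3 and 15.0 in the unchallenged replicates. The second was intergenic, nearest to TCF4, which encodes an E protein (10.2 and 15.2). Both the third and the fifth were downstream of SOX2, the pluripotency factor gene, at 40446 bp (9.82 and 12.5) and 188025 bp (8.68 and 12.4). The rest were near TMCC1, SPSB1, DOK5 and NDFIP2 and in introns of GPR143 and GPC5. The sites of ARHGAP28, GPR143, SPSB1 and DOK5 were also absent from both WT UV lists. Both SOX2 sites and those of TMCC1 and GPC5 had a region in all 4 WT lists, so their absence was seen in the ASH1L-/- UV libraries alone. Presence in a list depends on its threshold, and a difference between the genotypes at these sites was not tested.

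By genomic feature, 10.4% of gained and 5.53% of lost sites had their summit within 1 kb of a TSS of a protein-coding gene, 40.8% and 41.5% lay elsewhere in such genes, and 48.8% and 52.96% were intergenic. All union sites were at 9.69%, 42.3% and 48.0%, and shared sites at 20.9%, 33.4% and 45.7%. With 1 TSS per gene the promoter shares were 4.80% of gained and 1.66% of lost sites. Gained minus lost was 4.87 points, and turned to -9.13 where only the top quartile of each list counted as present (6.25% of 3551 gained and 15.4% of 4154 lost sites). It was 1.905 and 2.67 without UV replicates 1 and 2. Of gene-body sites, 5.90% of gained and 7.40% of lost ones were exonic.

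Promoters that gained a site included those of EPS8, an actin regulator (percentiles 81.4 and 83.5 in the UV replicates), AMOTL1, an angiomotin that binds YAP (87.2 and 79.3), and PRKAB2, a subunit of the energy sensor AMPK (78.8 and 80.1). GALNTL5 (85.5 and 93.2), WASHC5 (84.8 and 94.5), PITHD1 (82.0 and 88.7) and TMEM132A (83.3 and 80.9) were others of high rank. AMOTL1 and PRKAB2 had no region there in unchallenged WT cells, and all of those named had one in both WT UV libraries. Lost promoter sites of highest rank were those of ADGRF1 (90.0 and 83.4 in the unchallenged replicates), PLAAT5 (82.9 and 86.9), FAM178B, KRTAP16-1, MYO5B, C6orf15, SOX6 and GPR55. SOX6 encodes a transcription factor of cartilage and MYO5B a vesicle motor. Of these 8, only FAM178B had a region in both WT UV libraries.

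Of 19962 protein-coding genes, 9.33% had a gained and 2.25% a lost site within 1 kb of a TSS. Within the gene and 10 kb either side, 39.1% had a gained and 18.9% a lost site. Several stress-response lists had more gained sites per Mb than the average of 7.27 over all genes. For the immediate-early, DUSP and NF-kB lists the density was also above the average with 50 kb either side (17.1, 15.6 and 13.97 against 7.78). The other lists were then above it too, except TFIIH, incision and gap-filling genes (5.26) and osteoblast and mesenchymal genes (6.55). Lost sites of the immediate-early, DUSP and NF-kB lists were then also denser than the average (5.72, 4.09 and 4.80 against 3.19). The immediate-early list (FOS, JUN, EGR, IER, KLF and NR4A genes with ATF3, MAFF, MYC and SRF, 25 in all) had 23.8 gained sites per Mb and 3.76 lost (3.04 over all genes). Gained sites lay at 14 of these 25 loci, with 3 at IER5 and 2 each at KLF6, NR4A1 and NR4A3. Among them, FOSL1, a FOS-family member of AP-1, gained a site 873 bp from a TSS (percentiles 17.0 and 13.5) that was in both WT UV lists and in no unchallenged WT list. The DUSP phosphatases, which switch off MAP kinases, had 21.3 gained and 2.37 lost per Mb, with 4 of the 9 gained sites at DUSP16. Promoter sites were gained at KLF6 and KLF10 of the immediate-early list and at DUSP8, DUSP14 and DUSP16, which had 2, and 1 was lost at DUSP4. In WT cells the KLF10 site was in both UV lists alone, the KLF6 site was in both unchallenged lists and 1 UV list, and the DUSP14 site was in both unchallenged lists and in neither UV list, the reverse of ASH1L-/- cells. Strongest promoter regions of FOSL1, KLF6, DUSP8 and DUSP16 were in all 4 ASH1L-/- lists and lower after UV. Those of KLF10 and DUSP14 overlapped between the groups. The DUSP list is of 10 genes, so its densities rest on few sites.

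Genes of the integrated stress response, the programme run by ATF4, had 16.6 gained and 5.53 lost sites per Mb. With 50 kb either side of the genes the gained density was 10.2 against 7.78 over all genes. Promoter sites were gained at ATF5 (20.6 and 37.8), TRIB3 (49.7 and 50.95) and CEBPG (45.5 and 51.4). The TRIB3 and CEBPG sites were in both WT UV lists and in neither unchallenged WT list. However, the strongest promoter region of ATF5, TRIB3 and CEBPG was in all 4 ASH1L-/- lists and lower after UV. For TRIB3 it was at 92.0 and 95.9, then 76.6 and 80.8. NF-kB and inflammatory genes had 15.9 gained and 5.79 lost per Mb, with promoter sites at TNF (44.1 and 26.2) and NFKB1 (36.3 and 63.2), both again UV-only in WT. The strongest promoter region of NFKB1 was in all 4 ASH1L-/- lists, at 89.0 and 80.4, then 66.8 and 82.3, so its groups overlapped. The TNF promoter also had a region at 36.2 in unchallenged replicate 2. TEAD-YAP factors and targets had 13.2 gained and 7.89 lost per Mb, so both kinds were frequent. Gained promoter sites lay at 5 of these 16 genes, TEAD3, TEAD4, CCN1, AMOTL1 and AXL, and lost ones at none. Over all protein-coding genes the shares were 9.33% with a gained and 2.25% with a lost promoter site. However, the strongest promoter region of each of the 5 genes was in all 4 lists and lower after UV. For TEAD4 it was at 91.3 and 83.2, then 73.6 and 70.7. Of the 16 promoters of this list, 10 were lower after UV and none was higher. Over all genes with a promoter region in all 4 lists, 40.8% were lower and 9.53% higher.

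Repair genes differed among themselves. GG-NER damage recognition genes had 13.4 gained and 5.76 lost per Mb (7 and 3 sites at 9 genes). Transcription-coupled repair genes had 7.01 and 5.26, with a gained promoter site at ERCC6 (17.5 and 29.4) and 2 lost ones at USP7. Yet the strongest promoter region of USP7 was higher after UV (74.5 and 56.1, then 79.1 and 79.0), and that of ERCC6 was lower. TFIIH, incision and gap-filling genes had 6.49 and 4.13, with gained promoter sites at ERCC3 and POLD1 and lost ones at ERCC2 and GTF2H5. Their strongest promoter regions were higher after UV at GTF2H5 (96.4 and 94.3, then 97.4 and 98.3), lower at ERCC2 and POLD1, and overlapping at ERCC3. The list of ASH1L partners, FACT and H3K4 or H3K36 methyltransferases had 7.46 and 2.294, and NSD1, an H3K36 methyltransferase gene, gained 2 sites at its promoter. The p53 targets, at 7.75 and 3.88 per Mb, gained promoter sites at GADD45A (28.1 and 50.0) and AEN (44.2 and 45.6). These were minor sites, and the strongest promoter region of both genes was in all 4 lists and lower after UV. It was at 95.8 and 92.7, then 72.3 and 75.4 for GADD45A, and at 92.9 and 92.7, then 80.7 and 81.0 for AEN. Osteoblast and mesenchymal genes were below the average for gained sites (4.56 and 3.04). RUNX2, the master factor of bone, lost a promoter site (74.2 and 2.05 in the unchallenged replicates) that both unchallenged WT lists held and neither WT UV list did. COL5A1 lost one too, and SP7 and COL1A2 gained one each.

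**Figure D5:**
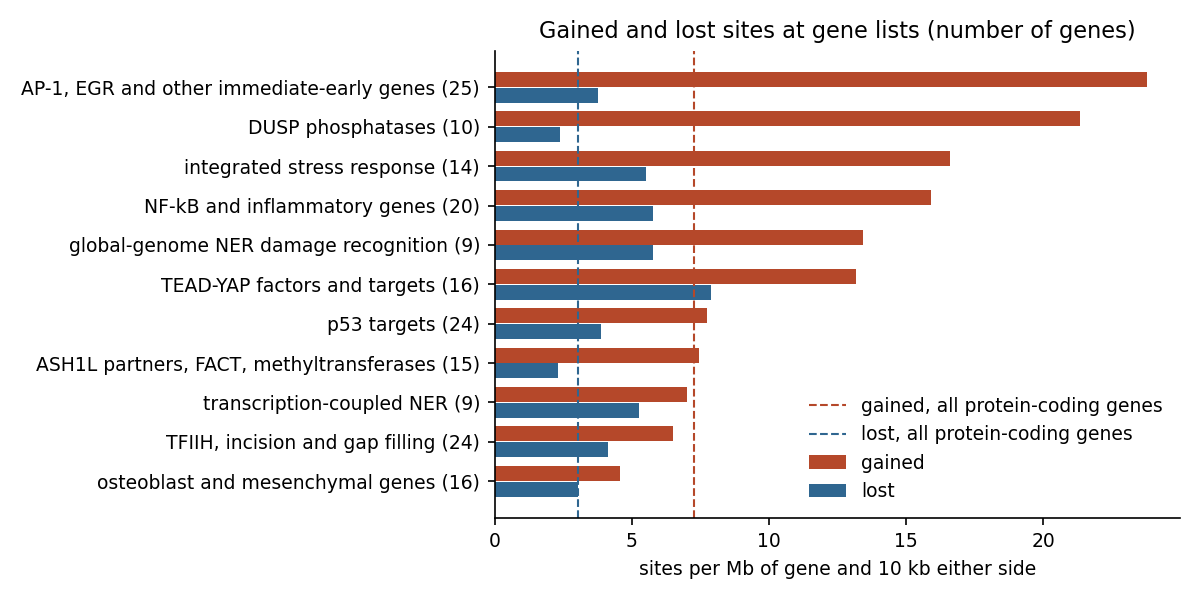
Gained and lost sites per Mb of gene plus 10 kb either side (x axis) for 11 gene lists, with the number of genes in parentheses, and the value over all protein-coding genes (dashed lines, 7.27 gained and 3.04 lost). Immediate-early genes (23.8) and DUSP phosphatases (21.3) had the highest gained density.

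Long genes collected the most sites. RUNX1, a factor that binds the RUNX motif, had 19 gained and 9 lost sites, PTPRN2 17 and 8, and RORA, a nuclear receptor gene, 14 and 3. DLG2 and RBFOX1 had 14 gained sites each. TRAPPC9, NCKAP5 and NRG1 had 13 each, and CDH13 and TENM2 12 each. NRG1, which encodes a ligand of the ERBB receptors, had 2 lost sites and CDH13, an atypical cadherin gene, had 1. Lost sites were most frequent at LRMDA, with 20 against 10 gained, followed by SDK1 and RBFOX1 (11 each), and TENM4 and RAD51B (10 each). Gained sites per Mb of locus were 18.4 at RORA, 17.3 at TRAPPC9, 15.9 at PTPRN2 and 15.4 at RUNX1. DLG2 (6.38) and RBFOX1 (5.61) lay below the 7.27 of all protein-coding genes.

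At the 74742 shared sites, percentiles were compared between the lists. Both UV percentiles lay above both unchallenged ones at 14742 sites (19.7%) and below them at 21184 (28.3%). AP-1 marked the difference here too. Outside promoters, 31.3% of sites with an AP-1 match were higher and 19.6% lower, against 15.2% higher and 30.5% lower of those without. The motif was in 57.1% of all higher and 25.9% of all lower sites. The excess of lower over higher sites rests on single libraries: higher minus lower was -8.62 points with all libraries, 11.9 without the deep unchallenged replicate 1, -24.2 without replicate 2, and 0.461 and -22.1 without UV replicates 1 and 2. Outside promoters, higher minus lower was 11.7 points with AP-1 and turned to -1.15 without unchallenged replicate 2, and it was -15.3 points without AP-1 and turned to 3.87 without unchallenged replicate 1. The contrast between sites with and without AP-1 outside promoters was 27.0 points, and lay between 28.8 and 34.0 when each library was left out.

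The widest gaps upward were at an intergenic site on chromosome 2, nearest to BCL11A, with percentiles of 3.41 and 3.21 without UV and 76.4 and 79.1 after UV, and at an intergenic site nearest to BHLHE23 (16.9 and 19.0, then 93.0 and 91.0). An intron of MAP2K1, the gene of the ERK-activating kinase MEK1, went from 0.542 and 14.1 to 85.0 and 88.5. Others lay in introns of PACS1, CAMK2D, NDST1, KIF1A and CACNG3 and near DHRS2 and C8orf34. Here the groups are far apart, as the rule for naming them required. The widest gaps downward were near COPS8 (96.0 and 96.6 without UV, 8.56 and 5.04 after UV), in an intron of RUNX1 (89.6 and 84.9, then 4.20 and 5.45), and near LOXL1, TRIM47, SVIL, SLC39A11 and DNAJC10. The FN3KRP promoter and introns of EXT1 and ZCCHC24 were lower as well. None of these 10 lower sites held an AP-1 match, while 6 of the 10 higher ones did.

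More promoters were lower than higher in rank after UV. Of 14045 genes with a promoter region in all 4 lists, 9.53% were higher and 40.8% lower. At the shared sites in promoters, higher minus lower was -27.0 points, and -8.99 without unchallenged replicate 1. The GG-NER genes were lower at 8 of 9 promoters. DDB2, the UV lesion sensor, was at 95.3 and 94.7 without UV and at 84.5 and 89.7 after UV. XPC, the exception, was at 97.3 and 95.8, then 95.3 and 96.7, so its groups overlapped. Immediate-early promoters were lower at 12 of 23 and higher at none, for instance JUNB (82.3 and 82.1, then 62.3 and 63.3) and SRF (91.5 and 89.5, then 80.7 and 81.9).

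Among the 11 lists, inflammatory promoters had the largest share of higher ones, 5 of 15, with 6 lower. IL1B, the gene of interleukin-1 beta, was at 11.6 and 18.9 without UV and at 72.3 and 75.4 after UV. IL1A was at 31.3 and 63.2, then 85.3 and 81.0. The chemokine gene CXCL8 was at 94.6 and 96.5, then 98.5 and 98.8, and NFKBIA and PTGS2 were higher too. Other promoters with wide gaps upward were those of TNFAIP1, DNAH11, CYP4V2, LRRC8E, TRIM22, CELF1 and an ERCC4 start site (7.005 and 20.4, then 75.5 and 68.6). ERCC4 encodes the XPF nuclease of NER, and the strongest region of its promoter was at 99.8 in both unchallenged lists and at 99.5 and 99.6 after UV, so the gap concerned a minor site. Wide gaps downward were at the promoters of GDA, SMAD3, a mediator of TGF-beta signals (76.7 and 79.7, then 17.2 and 13.6), AQP1, RFTN1, ITGB2, FGF1 and PI16. In the stress list CEBPB was at 48.3 and 63.5, then 17.2 and 5.18.

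By chromosome, the share of union sites that were gained was 3.59% to 7.69% on the autosomes and 11.1% on X, where 590 sites were gained and 68 lost. Gained sites per lost site were 1.53 to 3.42 on the autosomes and 8.68 on X. In WT cells X was highest as well, with 7.04% gained against 3.43% to 5.50%. Chromosome X also had the fewest union sites per Mb, 34.1 against 47.4 to 194.1 on the autosomes, and across the 23 chromosomes, which share the same libraries, the gained share was lower where that density was higher (Spearman's correlation -0.84, a description). AP-1 was in 53.9% of the gained sites on X. Without X there were 17423 gained and 8172 lost sites.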

How the data were processed

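Omni-ATAC libraries were sequenced as 50-bp paired ends. Per the study's methods and the submitters' processing notes, the authors trimmed adapters (cutadapt 1.9.1), aligned reads to hg38 without chromosome Y (Bowtie2 2.4.5), removed duplicates, poorly mapped and blacklisted reads, and called peaks in each library separately (MACS2 2.2.7.1; the methods name default parameters). For each summit the deposited lists give a fold enrichment (the authors' ratio of pileup to local background), −log10 p-values and −log10 q-values, and a score that is limited to 1000 and was not used. None was normalised between libraries, so column 7, the fold enrichment, was ranked within each list. The lists reached down to a −log10 p of 2. They hold no read counts; depth was estimated by solving the MACS2 formulas for pileup and background, and the reads behind each list were not analysed here.

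A region was a distinct interval with its strongest summit. Sites were placed by summit, with GENCODE 44: promoter within 1 kb of the TSS of any transcript of a protein-coding gene, then gene body, then intergenic. Motifs were matched on both strands in 300 bases of hg38, which fitted all coordinates. Members, gene lists and markers were chosen with earlier results of these data known, and the motifs after the lists had been seen. Named were ASH1L, the 10 gained and 10 lost sites with the highest lower percentile and the first 8 of each in promoters, the 10 genes with most gained and 5 with most lost sites, the 10 shared sites with the widest gap each way and 8 each in promoters, and members of the gene lists with a promoter site. Other members of the lists were named after their values were seen. Some items that these rules select are not reported here. Groups of 2 libraries were compared by exact permutation tests (two-sided). The joining and depth steps were tested on simulated lists. Alternatives were other peak thresholds, overlap and joining rules, promoter definitions, windows, ranks, and leaving out each library. Python 3.11.15, pandas 2.3.3, scipy 1.17.1 and pysam 0.24.0 were used.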

Additional observations from a re-analysis of the deposited data

How the results depend on the processing

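Under stricter lists the lost sites fell to 5301 (q below 0.05) and 3570 (q at or below 0.01). With the top quartile of each list alone there were 3551 gained and 4154 lost sites. The gained minus lost promoter share (4.87 points) was then -9.13, against 2.28 with regions joined within 500 bp and 3.14 with 1 TSS per gene, and the lost sites in WT differed by -46.6 points. The AP-1 difference (31.4 points) was 32.6 and 33.7 at these q limits, 41.2 for the top quartile, 33.1 with equal numbers of regions, 5.81 in 100 bases and 34.3 in 600 bases. UV lists held 10563 and 18566 more regions at the q limits (-7190 as reported), and at the stricter one the promoter and gene-body shares of regions differed by -0.243 and 0.243 points (1.25 and -0.928 as reported). With 50 kb around genes, the density minus that of all genes turned for gained sites at transcription-coupled repair genes (2.293) and for lost sites at p53 targets (-0.0795), DUSP phosphatases (0.898) and the integrated stress response (-0.187).

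Leaving out each library in turn gave 23944 to 79492 gained and 10948 to 100591 lost sites, and differences of 12.1 to 45.4 points for gained and -21.8 to -3.94 for lost sites in WT, 1.905 to 5.44 for promoter share and 10.2 to 32.6 for AP-1. Differences between lists were -38482.5 to 24102.5 regions, -5.11 to 17.8 Mb covered, 82.5 to 107.5 bp of width, 0.0946 to 0.162 summits per region and 7.82 to 10.6 points below q = 0.05. They were -0.0413 to 2.54 points for promoter, -2.00 to 0.148 for gene-body and -0.664 to 0.0232 for intergenic share. Regions turned without unchallenged replicate 1 (24102.5) or UV replicate 1 (9771.5), promoter and gene-body shares without unchallenged replicate 1, covered bases without unchallenged replicate 2 and intergenic share without UV replicate 1. Higher minus lower shared sites ranged from -24.2 to 11.9 points over all features, turning without unchallenged replicate 1 (11.9) or UV replicate 1 (0.461), and from -46.6 to -8.99 in promoters. Outside promoters it was -1.15 to 35.1 with AP-1, turning without unchallenged replicate 2, -31.8 to 3.87 without AP-1, turning without unchallenged replicate 1, and 28.8 to 34.0 between them. The cause of these changes was not tested.

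With the replicate block, the gained and lost sites (18013 and 8240) and the list differences (-7190 regions, 6.37 Mb, 95 bp) were all equal by construction. Deviations of equally numbered libraries did not move together (Pearson's r -0.0166 over 74742 shared sites). This is 1 correlation of ranks within lists at sites that all lists hold. It cannot tell whether libraries of equal number were handled together. Leaving out chromosome X or a library in the rank and motif results, motif results under other peak limits, 600 bases and 1 TSS per gene were chosen after the data were seen. Presence or absence near the limit of the lists depends on depth, which differed between the unchallenged replicates.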
